A study of Homo sapiens and Mus musculus with 20 samples.

Results

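The regions described here are stretches of the ARP1 genome that carried listed H3K27ac, an acetylated histone tail found at active promoters and enhancers, in both KDM6A mutants and in no listed region of the wild type. ARP1 is a human multiple myeloma cell line, a cancer line of plasma cell type. The choice used 3 lists: KDM6A knockout (KO), JmjD-dead, titled H1146E and altered in the demethylase domain of KDM6A, and KDM6A wild type (WT). Members were chosen by their listed H3K27ac values. A KO region entered when its −log10 q was at least 5, when it overlapped by at least 1 bp a JmjD-dead region that also reached 5, and when it overlapped no WT region of any strength, on chromosomes 1 to 22 and X. The q-value is the peak caller's false discovery estimate, so a larger −log10 q means a stronger region. This gave 1392 regions of 42181 KO regions that reached 5, or 3.3%, from a whole KO list of 76242. The other H3K27ac lists held 74063 (JmjD-dead) and 69127 (WT) regions. The same H3K27ac values chose the members, so those values are a description and carry no test.

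Other ARP1 libraries were not used in the choice and were laid over the members. H3K27me3 and input DNA were available for KO, JmjD-dead and WT cells, and H3K4me1 for KO and WT cells. KDM6A itself was precipitated from WT cells, with KO cells as background, and from KARPAS, a line labelled as multiple myeloma with unaltered KDM6A. HA was precipitated from a line titled HA-tagged and labelled knock out by genotype, with a WT line as background. Each group had 1 library, so no difference has a replicate check and no p-value is given. Intervals are exact Clopper-Pearson 95% intervals and cover counting error only. Whether a mutant line is 1 clone is not stated in the labels used here. The H3K4me1 titles end in 1E4 (KO) and 1WT (WT), unlike the H3K27ac titles, which end in KO and WT. Whether these tags name other lines than those used for H3K27ac is not known here.

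KDM6A, also called UTX, removes methyl groups from H3K27me3, the mark that the Polycomb complex PRC2 writes at silent genes, and is a subunit of the KMT2C and KMT2D complexes that write H3K4me1 at enhancers. H3K4me1 alone is found at enhancers that are primed but not active, and H3K27ac, written by p300 and CBP, is added when they are active. H3K27ac and H3K27me3 sit on the same lysine and cannot share a histone tail. In multiple myeloma KDM6A is a recurrently inactivated gene.

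The libraries differed in depth, given here in M (mega, as a unit of counts). After the authors' filtering the H3K27ac libraries held 25.6 (KO), 31.2 (JmjD-dead) and 30.8 (WT) M fragments. H3K27me3 was shallower, with 6.6 (KO), 10.4 (JmjD-dead) and 5.03 (WT) M. The H3K4me1 libraries held 25.6 (KO) and 34 (WT) M. Input was far shallower, with 0.725 (KO), 0.223 (JmjD-dead) and 0.384 (WT) M. Tags numbered 11.9 (WT) and 20.2 (KO) M for KDM6A, 37.4 M for KARPAS, and 25.3 (tagged) and 16.6 (WT) M for HA. A KO H3K27ac region of −log10 q 5 or more lay within 10 kb of 72.7% of all protein-coding genes and of 20 of 20 housekeeping genes. So it did for 19 of 20 plasma cell genes, 8 of 14 T and NK cell genes, 8 of 14 myeloid and erythroid genes and 7 of 14 epithelial and stromal genes.

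Of the RefSeq promoter windows, 27 lay whole inside a gained region, and 5 are printed to show what sequence was covered where a member met a gene start. The windows run from 250 bases before to 50 bases after the start in RefSeq GRCh38.p14 and are written 5′ to 3′ on the gene's strand. Those at the highest ranked gene-end members are KATNAL1, a katanin family ATPase that acts on microtubules (chr13:30306962-30307261, minus strand), PTPN14, a cytoplasmic tyrosine phosphatase (chr1:214551553-214551852, minus), HDGFL1, of the HDGF family (chr6:22569316-22569615, plus), and ZNF892, a zinc finger gene (chr2:95207271-95207570, plus). IFIH1, the cytosolic RNA sensor MDA5 (chr2:162318635-162318934, minus), was added after its values were seen, in place of FUT1, which lies in a bin rich in input regions. Capitals mark matches to 6 motifs searched on both strands. The matches are an ETS match in HDGFL1, an E-box in ZNF892 and 4 matches to the interferon response letters in IFIH1, some of which overlap. KATNAL1 and PTPN14 held no match.
KATNAL1 promoter window: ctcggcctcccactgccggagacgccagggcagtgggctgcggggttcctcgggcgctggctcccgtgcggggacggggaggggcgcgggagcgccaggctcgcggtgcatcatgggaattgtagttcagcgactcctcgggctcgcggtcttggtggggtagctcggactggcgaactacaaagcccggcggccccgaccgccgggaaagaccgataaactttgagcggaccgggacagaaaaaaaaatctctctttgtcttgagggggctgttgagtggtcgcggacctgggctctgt
PTPN14 promoter window: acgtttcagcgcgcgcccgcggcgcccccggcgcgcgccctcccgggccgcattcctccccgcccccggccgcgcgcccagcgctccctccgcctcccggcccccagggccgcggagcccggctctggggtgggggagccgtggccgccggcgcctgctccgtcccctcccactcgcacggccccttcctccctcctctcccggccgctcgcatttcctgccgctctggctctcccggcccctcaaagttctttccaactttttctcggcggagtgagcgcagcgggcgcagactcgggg
HDGFL1 promoter window: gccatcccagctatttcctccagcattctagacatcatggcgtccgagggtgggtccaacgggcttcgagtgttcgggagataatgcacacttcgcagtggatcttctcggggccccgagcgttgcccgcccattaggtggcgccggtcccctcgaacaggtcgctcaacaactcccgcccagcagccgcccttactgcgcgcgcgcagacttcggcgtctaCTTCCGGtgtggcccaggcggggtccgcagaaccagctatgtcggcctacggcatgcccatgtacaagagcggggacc
ZNF892 promoter window: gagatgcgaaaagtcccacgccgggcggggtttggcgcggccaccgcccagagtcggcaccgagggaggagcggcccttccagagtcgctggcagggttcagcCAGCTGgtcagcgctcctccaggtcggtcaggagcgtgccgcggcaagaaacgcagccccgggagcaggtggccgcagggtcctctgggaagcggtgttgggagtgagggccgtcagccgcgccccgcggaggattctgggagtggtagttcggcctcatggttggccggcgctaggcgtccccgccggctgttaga
IFIH1 promoter window: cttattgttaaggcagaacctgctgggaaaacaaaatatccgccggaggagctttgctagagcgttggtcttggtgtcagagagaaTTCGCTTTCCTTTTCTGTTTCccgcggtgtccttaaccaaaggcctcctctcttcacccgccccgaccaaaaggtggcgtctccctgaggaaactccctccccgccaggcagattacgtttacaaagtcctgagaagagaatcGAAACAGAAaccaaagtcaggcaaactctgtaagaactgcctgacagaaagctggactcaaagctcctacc

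The IFIH1 region, chr2:162318346-162319377, was 1032 bp wide in KO and covered the gene start. Its −log10 q was 10.6 in KO cells, with a fold enrichment of 7.07, and 6.06 in JmjD-dead cells, with a fold of 5.11. The nearest WT H3K27ac region was 243923 bp away, while WT cells held H3K4me1 there. KDM6A and HA regions were not listed at it in ARP1.

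KATNAL1 had the strongest region at a gene end, chr13:30306646-30307908, in which −log10 q was 50.5 in KO cells and 23.9 in JmjD-dead cells, with folds of 19.5 and 11.4. It lay 87214 bp from the nearest WT region and on WT H3K4me1. PTPN14 had 27.6 in KO cells and 9.97 in JmjD-dead cells, and its region lay 25184 bp from a WT region, also on WT H3K4me1. HDGFL1 had similar values in both mutants, 21.1 in KO cells and 23.9 in JmjD-dead cells. The region spanned 1874 bp in KO cells and 1443 bp in JmjD-dead cells, and WT held no H3K4me1 there. ZNF892 had 19.9 in KO cells and 9.97 in JmjD-dead cells.

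Other gene-end members were uneven between the mutants. At MT1F, a metallothionein that binds zinc and copper, the region chr16:56657338-56658663 had a −log10 q of 49 in KO cells and 6.06 in JmjD-dead cells. The fold there was 19.1 in KO and 5.11 in JmjD-dead cells. In KO cells the region was 1326 bp wide, and in JmjD-dead cells 196 bp. CD9, a tetraspanin of the cell surface, had 23.7 in KO and 6.99 in JmjD-dead cells at a region inside the gene, 1898 bp from its nearer end. PTPRH, a receptor tyrosine phosphatase, had 33.1 in KO and 12.1 in JmjD-dead cells, and a region 1071 bp from C6orf58 had 37.3 in KO and 19 in JmjD-dead cells. GAS6, a ligand of the TAM receptors, and FUT1, which makes the H blood group antigen, had 18.6 in KO and 6.06 in JmjD-dead cells each. Both lay in 1 Mb bins rich in input regions, which are described with the genome positions.

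Most members were weak and narrow. They were set beside 2911 regions of KO alone, which met no JmjD-dead or WT region, and 33776 held in all 3 genotypes, which met a JmjD-dead region of at least 5 and a WT region. The members' median −log10 q was 7.45 in KO cells, against 6.48 for regions found in KO alone, 29 for regions held in all 3 genotypes and 18.6 for all KO regions. The fold enrichment ran between 4.99 and 57.4 with a median of 5.82, on pileups of 11 to 137 fragments with a median of 13. This fold is the peak caller's ratio of the pileup to the library's mean, with 1 added to both. Median width was 418 bp, against 379 bp in KO alone and 1250 bp for regions held in all 3. In JmjD-dead cells the overlapping regions had a median −log10 q of 8.95, a median fold of 6.29 and a median width of 382 bp. KO −log10 q was below 10 in 1040 members and at least 20 in 66. The members that just passed numbered 333, all with a −log10 q of 5.54, a pileup of 11 and a fold of 4.99. Just outside were 476 KO regions with a −log10 q of 4.63, a pileup of 10 and a fold of 4.57 that met the rest of the rule. Another 618 KO regions of 5 or more without a WT region overlapped JmjD-dead regions that stayed under 5. Without the bound of 5 the rule gave 6127 regions, and 876 members had no WT region within 1 kb. A WT region could be listed at a pileup of 7 and a fold of 2.98, the lowest values of that list.

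The −log10 q was higher in KO for 613 members and higher in JmjD-dead for 779, a count not made over all KO regions. Regions held in all 3 genotypes leaned the same way, with medians of 29 in KO and 41.5 in JmjD-dead cells. The KO library was shallower, with 25.6 against 31.2 M fragments. What depth contributes to these values, and to those at single genes, was not tested. Very high JmjD-dead values mostly belonged to regions that ran on into WT H3K27ac: the JmjD-dead region overlapped a WT region for 155 members, or 11.1%, and for 63 of the 75 members whose JmjD-dead value was at least 50. IKZF3, the lymphoid factor Aiolos, is an example. Its member was 227 bp wide with a −log10 q of 7.45 in KO cells, the JmjD-dead region was 5694 bp wide with 185, and a WT region lay 513 bp from the member. At these 155 places JmjD-dead H3K27ac was not separate from H3K27ac listed in WT cells. The other 1237 members had a JmjD-dead region clear of WT.

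**Figure D1:**
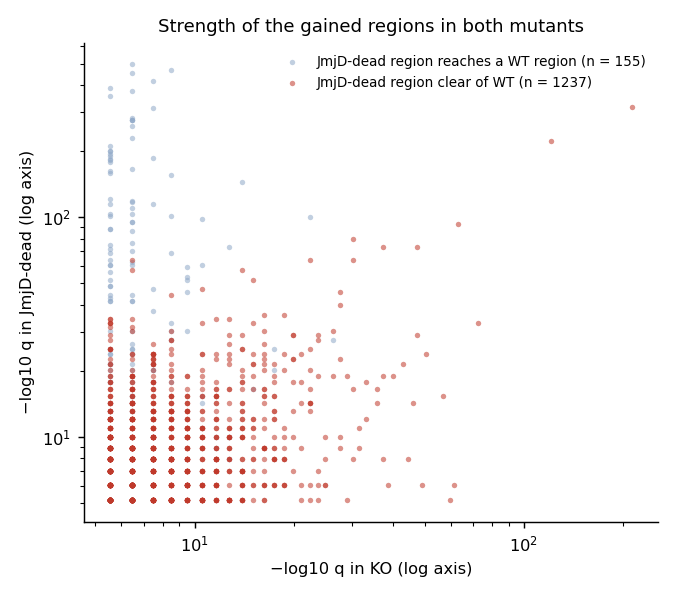
Strength of the 1392 gained regions: −log10 q in KO on the x axis and in JmjD-dead on the y axis, both log axes, 1 point a region. Pale blue points (n = 155) have a JmjD-dead region that overlaps a WT region, and they hold 63 of the 75 values of at least 50 in JmjD-dead.

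A −log10 q of 10 in both mutants was reached by 164 members and a value of 20 in both by 23. The 23 fall into narrow spikes and broader regions. Fragment lengths in the headers were 147 bp in KO cells and 132 bp in JmjD-dead cells. At ARHGEF18, a guanine nucleotide exchange factor, the region chr19:7362010-7362276 spanned 267 bp in KO cells with a −log10 q of 213, and 149 bp in JmjD-dead cells with 317, and a WT region lay 271 bp away. A spike 70430 bp from LRRCC1, in a bin rich in input regions, had 149 bp in KO cells with 121, and 146 bp in JmjD-dead cells with 222. BIRC6, a giant inhibitor of apoptosis protein with ubiquitin ligase activity, held one inside the gene with 184 bp in KO cells with 47.5, and 162 bp in JmjD-dead cells with 73.5. The spike nearest to FAM240C, 280771 bp away, had 190 bp in KO cells with 72.6, and 135 bp in JmjD-dead cells with 33.1. In all, 12 members reached 20 in KO, whatever their JmjD-dead value, at a width under 300 bp. Of these, 0 lay within 2.5 kb of a gene end, against 13.9% of all members and 32.2% of all KO regions. With only 12 regions, this 0 does not set them apart from the other members.

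Broader regions reached 20 in both mutants far from WT H3K27ac as well. SULF2, an extracellular sulfatase that trims heparan sulfate, had regions of 2185 and 2397 bp in KO cells with −log10 q of 30.3 and 22.4. Both lay in 1 JmjD-dead region of 6842 bp with 64, and the nearest WT region was 46525 bp away. At 26096 bp from PCDH11X, a protocadherin, lay a region of 682 bp in KO cells with 47.5 and one of 369 bp in JmjD-dead cells with 29.1, and WT H3K27ac was 2989751 bp away. KCNS3, a modifier subunit of voltage-gated potassium channels, was the nearest gene, at 275910 bp, to a region with 43.1 in KO and 21.4 in JmjD-dead cells. HOMER2, a scaffold of glutamate receptors, and RNF180, a ubiquitin ligase, held regions inside the gene. The HOMER2 region had 23.7 in KO and 27.8 in JmjD-dead cells, and the RNF180 region had 26.3 in KO and 30.4 in JmjD-dead cells. Of the 23, 13 lay on WT H3K4me1 and 2 had a JmjD-dead region that overlapped WT H3K27ac.

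Among the 12 members ranked highest in KO were also RAB3IL1, a Rab exchange factor, TEX44 and a pair inside CELF4, an RNA-binding protein. RAB3IL1 had a −log10 q of 61.4 in KO cells and 6.06 in JmjD-dead cells. The region nearest to TEX44, 47996 bp away, had 59.8 in KO and 5.16 in JmjD-dead cells, and the CELF4 pair had 56.7 and 46 in KO, with 15.4 and 14.3 in JmjD-dead cells. Widths also differed. The widest member, 113110 bp from PREX1, a Rac exchange factor, spanned 6988 bp in KO cells, against 841 bp in JmjD-dead cells. It overlapped an input region and an HA region of the WT line. At 202148 bp from LRATD1 the widths were 3879 bp (KO) and 182 bp (JmjD-dead). At 433657 bp from ADRA2A, an adrenergic receptor gene, they were 3105 bp (KO) and 895 bp (JmjD-dead). Inside GPR55, a lipid-sensing receptor, they were 3405 bp (KO) and 332 bp (JmjD-dead). These 4 names were chosen after their values were seen.

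Many members lay in parts of the genome dense in input regions. A bin of 1 Mb was called dense when it held at least 10 KO input regions, a limit set after the data were seen. The 141 dense bins held 310 members, or 22.3%, against 13.6% of all KO regions. The share of KO regions that met the rule was 5.41% in dense bins and 2.97% outside. The fullest bins were chromosome 19 at 26 to 27 Mb with 22 members and 87 input regions, chromosome 1 at 124 to 125 Mb with 18 and 94, and chromosome 1 at 122 to 123 Mb with 15 and 46, all of which adjoin or lie in centromeres. In dense bins HA regions of the tagged line met 73.5% of members and those of the WT line 76.5%. KDM6A regions met 77.4% in WT cells and 44.2% in KO cells, the line labelled as lacking the target. What input regions contribute to the members there was not tested. Marks are therefore given below also for the 1082 members outside dense bins.

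**Figure D2:**
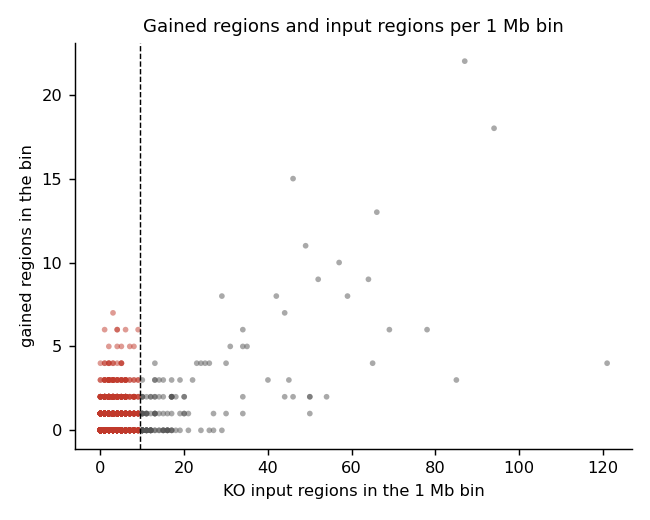
Gained regions per 1 Mb bin against KO input regions in the same bin, 1 point for each bin with a KO region of −log10 q 5 or more. Grey points right of the dashed line are the bins of at least 10 input regions, where the count reached 22, against 7 in the fullest bin to the left.

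Outside dense bins the members were spread thinly. They fell in 823 of 2782 bins when all bins are counted, and per chromosome between 1.54% (chromosome 16) and 4.2% (chromosome 18) of KO regions outside dense bins met the rule. Over all bins, joined across gaps of up to 10 kb, 1186 members stood alone and 93 pairs formed. Another 20 members, or 1.44%, lay in 6 clusters of at least 3. That share was 1.57% without dense bins, 0% for members of at least 10 in both mutants and 15.9% when every listed region counted. Clusters were not counted over all KO regions. The largest cluster had 5 members over 11271 bp at NRG2, a neuregulin that binds ERBB receptors (chr5:140038256-140049526). Its best member had a −log10 q of 12.8 in KO and 23.9 in JmjD-dead cells and lay 63407 bp from WT H3K27ac, and 3 of the 5 lay on WT H3K4me1. Clusters of 3 lay at CELF4 over 12743 bp and at KSR1, a scaffold of RAF and MEK, over 7584 bp, each with 3 members on WT H3K4me1. The cluster nearest to POU3F3, a POU homeobox factor, spanned 4541 bp, with its best member 118241 bp from the gene. Of its 3 members, 0 lay on WT H3K4me1. At CUL1, the scaffold of SCF ubiquitin ligases, the cluster spanned 2064 bp with 1 of 3. The sixth, nearest to LINC02798, was in a dense bin of chromosome 1.

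Distance to WT H3K27ac split the members into those beside an existing region and those far from one. A WT region lay within 1 kb of 516 members, or 37.1%, and for 439 of them the same WT region was overlapped by another KO region, so the KO list held both the WT site and the flank. A further 243 lay at 1 to 5 kb, 388 at 5 to 50 kb and 245, or 17.6%, beyond 50 kb. The median was 3194 bp. Outside dense bins a gene end lay within 2.5 kb of 22.8% of the members within 1 kb of WT H3K27ac and of 9.58% of those beyond 50 kb. WT H3K4me1 was met by 50.5% (45.3 to 55.7) of the nearest class and 62.1% (55.6 to 68.2) of the farthest, with 53% and 55.7% in between. With all bins the shares were 57.9%, 63%, 57% and 62%, nearest class first, so no order with distance held in both.

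**Figure D3:**
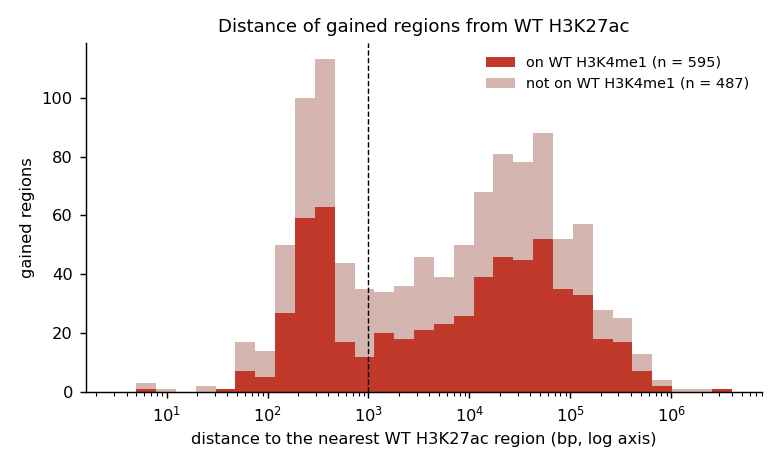
Distance of the 1082 gained regions outside dense bins to the nearest WT H3K27ac region, on a log axis, with the count of regions on the y axis. Dark bars are regions on WT H3K4me1 (n = 595) and pale bars the rest (n = 487), and the dashed line marks 1 kb. One hump lies within 1 kb and a second beyond 5 kb.

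Most members were distal to genes. A protein-coding gene end lay within 2.5 kb of 194 members, or 13.9% (12.2 to 15.9), against 32.2% of all KO regions, and 86.1% were distal by this measure. The gene-end share was 26.3% within 10 kb, 9.14% from RefSeq transcription starts and 8.54% for members of at least 10 in both mutants. Outside dense bins the share was 16.4% (14.2 to 18.7), against 15% for regions found in KO alone and 39% for those held in all 3. The order against held regions changed with KO strength. At −log10 q of 5 to 7, 19% (15.5 to 22.9) of members and 12.7% (11.4 to 14) of held regions had a gene end. At 7 to 10 the shares were 15.6% and 15.3%, and at 10 to 20 they were 13.6% and 19.8%. Only at 20 or more was the gap wide, with 11.3% and 53.2%. A gene body was overlapped by 40.4% of members, against 58.9% of all KO regions, 50.8% of regions found in KO alone and 61.4% of held regions. Promoter windows of RefSeq were overlapped by 64 members, or 4.83% of the 1324 on chromosomes in that table, against 25.2% of KO regions. They were 77 windows of 71 genes, 53 of them protein-coding.

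Among the WT lists, H3K4me1 was the one that met members most often. It met 825 members, or 59.3% (56.6 to 61.9), against 88% of all KO regions. When the H3K4me1 region itself had to reach a −log10 q of 5, the share was 28.7% of members, against 76.4% of all KO regions. Outside dense bins the share was 55% (52 to 58), against 32.2% for KO alone and 96.4% for regions held in all 3. Wider regions meet more marks by position alone, so the KO summit base was also used, split by strength. At −log10 q of 5 to 7, 35.2% of members, 19.9% of regions in KO alone and 71.1% of held regions had the summit in WT H3K4me1. At 7 to 10 the shares were 41.3%, 26.5% and 78.5%, and at 10 to 20 they were 50.4%, 27.3% and 89.9%, in the same order. At 20 or more they were 43.5%, 28.6% and 98.9%, where the intervals of the first, 31 to 56.7, and the second, 19.2 to 39.5, overlap. Members stood between the other sets in each band. Of the sets compared here, all were sorted by WT H3K27ac, so this order is a description.

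**Figure D4:**
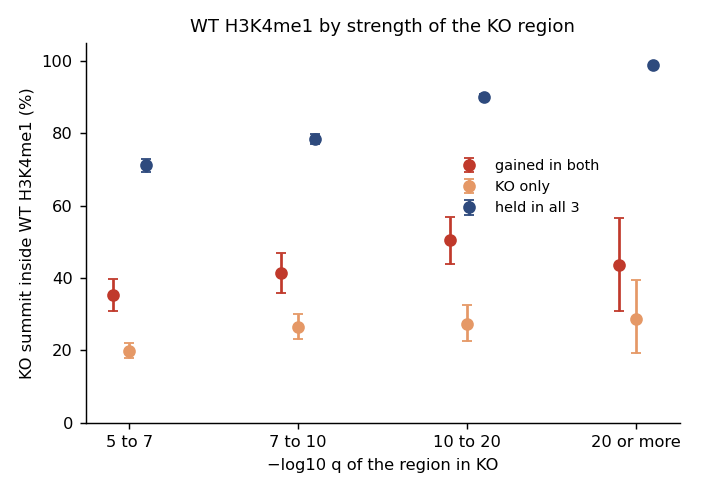
Share of KO H3K27ac regions whose summit lay in a WT H3K4me1 region, by −log10 q of the region in KO, outside dense bins. Points are shares and bars exact 95% intervals. Gained regions (red) lie between KO only (orange) and held regions (blue), with 35.2%, 19.9% and 71.1% in the lowest band.

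KO H3K4me1 met 20% of members, against 28.3% of all KO regions. The KO H3K4me1 list held 80845 regions of a median 220 bp, against 95729 of 300 bp in WT, and all KO H3K27ac regions showed the same order of KO below WT. H3K4me1 was listed in WT and not in KO at 607 members and in KO and not in WT at 60. Neither count was made over all KO regions, of which WT H3K4me1 met 88% and KO H3K4me1 28.3%. So neither can be called particular to the members. The H3K4me1 library was shallower in KO, 25.6 against 34 M fragments in WT, and what depth contributes was not tested.

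H3K27me3 in WT cells met few members. It met 100, or 7.18% (5.88 to 8.67), against 17.2% of all KO regions. With H3K27me3 regions of at least 5 it met 1.72%, against 5.45%. It met 44, or 4.07% (2.97 to 5.42), outside dense bins, where KO alone gave 2.46% and held regions 15.2%. Held regions were wider, and at the KO summit base the gap was small. There, outside dense bins, members gave 2.87% (1.95 to 4.04), KO alone 1.43%, held regions 4.1% and all KO regions 3.82%. Over whole regions and all bins, the mutants gave 8.55% in KO and 23.3% in JmjD-dead cells, against 14% and 26.6% of all KO regions. The JmjD-dead list was the longest, with 37236 regions, against 11865 in KO and 17355 in WT, and its library the deepest. A member on WT H3K27me3 with no H3K27me3 in either mutant occurred 32 times, 25 of them outside dense bins. Such places were not counted over all KO regions. At these depths of 5.03 to 10.4 M fragments, weak or broad H3K27me3 could go unlisted.

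KDM6A regions of WT cells met 364 members, or 26.1%, against 31.8% of all KO regions, and 11.5% of members outside dense bins. Those of KO cells, the background of the antibody, met 12.2%, against 10.7%. WT KDM6A regions absent from the KO list met 190 members, or 13.6% (11.9 to 15.6), against 22.4%, and 90 members, or 8.32% (6.74 to 10.1), outside dense bins, where KO alone gave 4.49% and held regions 25.1%. The HA antibody met 30.7% of members in the tagged line, against 44.9% of all KO regions, and 18.4% of members outside dense bins. It met 20.7% in the WT line, against 18.7%. HA regions found in the tagged line alone met 186 members, or 13.4% (11.6 to 15.3), against 33.7%. Outside dense bins this was 171 members, or 15.8% (13.7 to 18.1), against 7.42% for KO alone and 41.9% for held regions. Both antibodies, each freed of its background, met 44 members, a count not made over all KO regions. KARPAS KDM6A met 22.1%, against 28.2%. With the KO summit base in place of the whole region, WT KDM6A met 19.8% of members and 13% of all KO regions. Outside dense bins this was 4.34% and 6.08%. WT KDM6A absent from the KO list met 8.26% and 5.68% at the summit, and 2.4% and 4.1% outside dense bins. HA of the tagged line alone met 4.53% and 13.7% at the summit, and 5.36% and 15% outside dense bins. A KDM6A or HA region free of its background was listed at a minority of the members.

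**Figure D5:**
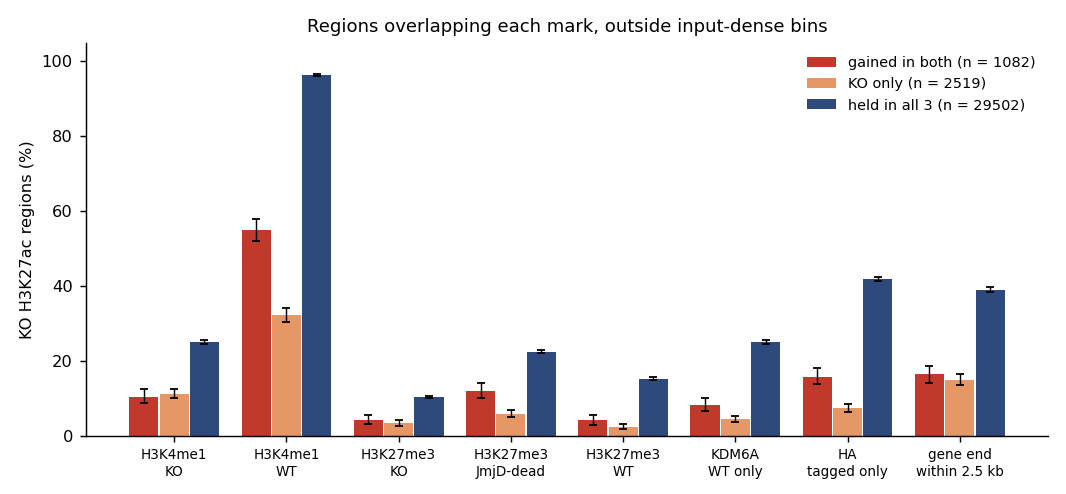
Share of KO H3K27ac regions overlapping each list, outside dense bins, for regions gained in both mutants (red), found in KO only (orange) and held in all 3 genotypes (blue), with exact 95% intervals. WT H3K4me1 is the tallest group, at 55%, 32.2% and 96.4%. KDM6A "WT only" and HA "tagged only" are regions absent from the background line.

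WT H3K4me1, which met 88% of all KO regions, and tagged-only HA, which met 33.7%, coincided at 140 members, 128 of them outside dense bins. The strongest were near TEX44, at KLF7, a Krüppel-like factor, near KCNS3, near NEO1, the netrin receptor neogenin, and near LOC105372073. KLF7 had a −log10 q of 44.5 in KO cells and 7.96 in JmjD-dead cells, inside the gene and 21525 bp from WT H3K27ac. The region 21151 bp from NEO1 had 40.2 in KO and 19 in JmjD-dead cells at 20850 bp from WT H3K27ac, and WT KDM6A absent from KO was listed there as well. The region 801135 bp from LOC105372073 had 33.1 in KO and 17.8 in JmjD-dead cells. KDM6A regions of KO cells, the background of that antibody, were listed at the KLF7 and KCNS3 regions. WT KDM6A was listed at KCNS3 as well, and not at the TEX44, KLF7 or LOC105372073 regions. At the other end, 459 members, 416 of them outside dense bins, held none of WT H3K4me1, WT H3K27me3, WT-only KDM6A or tagged-only HA. The 140 and the 459 were not counted over all KO regions, so neither can be called particular to the members.

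Genes of the immune, myeloma, chromatin and marker lists had a member about as often as genes in general. Over all 19974 protein-coding genes, 790, or 3.96%, had one within 10 kb. Of 383 list genes in the gene table, 13, or 3.39%, did, through 11 regions, and 9 of 17 lists had 0. The 13 became 0 at a −log10 q of 10 in both mutants, 5 with no WT region within 1 kb, 8 at 50% overlap and 53 with every listed region. MHC class I gave 1 of 22, CALR, the chaperone calreticulin, and MHC class II 0 of 16. Interferon-stimulated genes gave 2 of 33, among them IFIH1. Immune ligands gave 1 of 28, TNFSF9, the ligand of 4-1BB, and B cell genes 1 of 20, BACH2, a repressor of plasma cell differentiation. Myeloma oncogenes gave 2 of 23, IKZF3 and BCL2, the inhibitor of apoptosis. KDM6, COMPASS and Polycomb genes gave 2 of 23, KDM6B and KDM6A, and housekeeping genes 1 of 20. Metal and oxidative response genes gave 3 of 14, MT1B, MT1F and MT1G, all through the same region. Cytokines and receptors (30), plasma cell (20), AP-1, MAF and BATF (18), HOX (39) and developmental factor (40) genes gave 0, as did the marker lists of T and NK, myeloid and erythroid, and epithelial and stromal cells.

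Most list members were flanks of WT H3K27ac. Of the 11 regions, 8 lay within 1 kb of a WT region, against 37.1% of all members. On WT H3K4me1 lay 8, against 59.3% of all members. At KDM6B, the sister demethylase of KDM6A, the member chr17:7833973-7834188 was 216 bp wide, 29 bp from the gene and 227 bp from a WT region, with a −log10 q of 12.8 in KO and 5.16 in JmjD-dead cells. KDM6A itself held a member inside the gene, chrX:45069573-45071015, 1443 bp wide, with 5.54 in KO and 9.97 in JmjD-dead cells and a WT region 425 bp away. BACH2 had 6.48 in KO and 6.06 in JmjD-dead cells in a region 190 bp from WT H3K27ac, on WT H3K4me1, WT-only KDM6A and tagged-only HA. BCL2 had 5.54 in KO and 7.96 in JmjD-dead cells, 341 bp from WT H3K27ac. CALR had 5.54 in KO and 5.16 in JmjD-dead cells. The region 466 bp from TNFSF9 had 6.48 in KO and 8.95 in JmjD-dead cells, 1063 bp from WT H3K27ac. IFIH1 and the metallothionein region were the ones far from any WT region.

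Motifs were counted in the 77 promoter windows on members, and for each of the 6 the interval held the share in all windows. The AP-1 letters TGANTCA occurred in 7.79% (2.91 to 16.2), against 4.27% of the 14665 windows on KO regions and 7.68% of all 34961 windows. The interferon response letters GAAANNGAA occurred in 7.79%, against 6.06% and 8.11%. RUNX, TGTGGT, gave 14.3%, against 9.34% and 13.1%, and the E-box CAGCTG gave 22.1%, against 16.2% and 18%. The octamer ATTTGCAT gave 1.3%, against 1.3% and 1.77%. ETS, CCGGAAG, was at 6.49% (2.14 to 14.5), an interval below its share on KO regions, against 19.9% of windows on KO regions and 10.3% of all windows. All were searched on both strands, the windows are few, and a match is letters in a window, not a bound site.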

How the data were processed

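ChIP-seq region lists of 16 human libraries, 1 per group, were used. Mouse lists were not used here. The submitters' processing notes name GRCh38, Bowtie2, Trimmomatic, MACS2 2.1.2, FastQC and MultiQC. The file headers name MACS 2.2.7.1 (H3K27ac, H3K27me3, input) and 2.1.1.20160309 (the others), with regions called per library without a control or local background at a q-value of 0.05. Copy number gains and repeats can therefore give regions. The deposited columns are a −log10 q-value, a −log10 p-value, a fold enrichment (a ratio) and a pileup signal. These are the authors' values for the region and were used to rank or filter within a list. Where KO and JmjD-dead values are set side by side, they come from libraries of unlike depth and are a description.

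Rows with shared coordinates were merged. Genes, 19974 protein-coding, came from RefSeq GRCh38.p14, whose table gives no strand, so either gene end counted. Promoter sequences came from the RefSeq GRCh38.p14 table. Depth ran from 0.223 M (input) to 37.4 M units per library.

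The members and lists were chosen with earlier results of these data known. Named genes were the nearest to the 12 members ranked highest in KO, the 6 largest clusters, the 10 highest members at gene ends, up to 4 per list and the 5 highest on WT H3K4me1 and tagged-only HA. Names added after values were seen are IFIH1's promoter, the members of 20 or more in both mutants and the widest members. The alternatives numbered 13 planned and 3 added after seeing the data. Software was Python 3.11.15 with scipy 1.17.1, pandas 2.3.3, matplotlib 3.10.9 and numpy 2.4.6. On simulated data the overlap functions passed 6 of 6 tests. The values of some list genes are not reported here.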

Additional observations from a re-analysis of the deposited data

How the results depend on the processing

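Of 77 alternative values, 36 stayed within the interval or within 1.5 times the value reported and 41 moved. Cutting the H3K27ac lists to equal length is not counted, since it could remove no member. Requiring −log10 q of at least 10 left 164 members, taking every listed region gave 6127, and requiring no WT region within 1 kb gave 876. The share within 2.5 kb of a gene end, 13.9%, became 8.54%, 11.9% and 11.3% under these settings. It became 9.48% within 1 kb, 26.3% within 10 kb, 16.4% without dense bins and 9.14% from RefSeq transcription starts.

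The share within 5 kb of WT H3K27ac, 54.5%, became 33.5% at a −log10 q of 10, 69.6% for every listed region and 27.7% with no WT region within 1 kb. It was 70.7% at 20 kb, 46.8% without dense bins and 48.8% without members whose JmjD-dead region overlaps WT. The share in clusters, 1.44%, became 0% and 15.9% at −log10 q of 10 and for every listed region.

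WT H3K4me1, 59.3%, became 65.9% at 10, 47.7% for every listed region, 46.3% at the KO summit, 28.7% when the H3K4me1 region had to reach 5, and 55% without dense bins. WT H3K27me3, 7.18%, became 5.75% at the summit, 1.72% with its regions at 5 and 4.07% without dense bins. WT KDM6A, 26.1%, became 23.5% with no WT region within 1 kb, 19.8% at the summit, 22.1% at 5 and 11.5% without dense bins. Tagged HA, 30.7%, became 38.4% at 10, 25.5% for every listed region, 33.3% at 50% overlap, 27.9% with no WT region within 1 kb, 19.8% at the summit, 21.7% at 5 and 18.4% without dense bins. The list genes with a member, 13, became 0 at 10, 53 for every listed region, 8 at 50% overlap and 5 with no WT region within 1 kb. Removal of the 47 members on input regions, or 3.38%, moved no value. So few members could hardly move a share, so this setting cannot show what input contributes. The causes of the moves were not tested. No paired analysis was possible because each group had 1 library, and for the same reason no library could be left out.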
